A study of Danio rerio with 12 samples.

Results

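The 6 vessel miRNAs of the zebrafish embryo described here were taken from 214 miRNA names in the series. The endothelial members are miR-126a, miR-126b, miR-221 and miR-222a, and the mural members, those of the smooth muscle cells and pericytes that wrap a vessel, are miR-143 and miR-145. They were taken by their deposited names (mir-126a, mir-126b, mir-221, mir-222, mir-143 and mir-145), both arms of each hairpin, which gave 12 arms of 464 miRNA features. One arm of each hairpin carries a star in the deposited names and is called the minor arm, as miR-126a*, and the other is called the major arm. The row deposited as mir-222 was taken as miR-222a, a name that RefSeq (GRCz12tu) gives as a synonym. Both rows of miR-143, which held nearly equal counts, were counted once. Small RNA was sequenced from whole embryos of the TL wild type strain in 4 groups of 3 libraries: embryos of 60 hpf (hours post fertilisation) exposed to TCDD (the dioxin best known as an agonist of the aryl hydrocarbon receptor), embryos of 60 hpf given DMSO, its vehicle, and embryos of 36 hpf given TCDD or DMSO. The question of the study was the response of miRNAs to a short exposure to TCDD. Dose and length of exposure are not in the labels. A whole embryo holds every tissue, so fewer cells of a type and less RNA per cell cannot be told apart.

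A miRNA is cut from a hairpin precursor whose arms can each be loaded into a silencing complex, where the loaded arm pairs with mRNAs and lowers their output. miR-126 is the classical endothelial miRNA. It acts in vascular integrity in zebrafish through targets such as spred1 and pik3r2, which restrain VEGF signalling, and in mammals its hairpin lies in an intron of Egfl7. miR-221 and miR-222 share a seed and a cluster, and miR-221 is needed for endothelial tip cell behaviour in zebrafish. miR-143 and miR-145 form a cluster known for the contractile state of smooth muscle, and both are also expressed in the heart and gut. By RefSeq annotation, the hairpin of miR-126b lies inside egfl7, the hairpins of miR-221 and miR-222a are next neighbours, and those of miR-126a and miR-145 each lie inside an unnamed long noncoding RNA gene. miR-143 had no entry in that table.

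Libraries held 459634 to 4210840 miRNA counts, so 1 count was worth 2.18 CPM (miRNA counts scaled to a library total of 1000000) in the shallowest and 0.237 CPM in the deepest. Depth went with time. Libraries of 60 hpf held 2007639 to 4210840 miRNA counts. Those of 36 hpf held 459634 to 1408510, apart from 3557670 in DMSO replicate 3. The part of depth in the differences between the times was not tested. Levels below are CPM on library sizes scaled by TMM. Mature miRNAs are of nearly one length, so CPM of different miRNAs can be set side by side, as far as ligation and sequencing treat them alike. Of the 12 arms, 11 were abundant enough to be tested. miR-143*, at 0 to 12 counts per library, was not. The labels do not say whether replicates came from separate clutches, and the p-values cover the spread among these libraries alone.

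All 6 major arms were detected in all 12 libraries. By the mean over the libraries, miR-221 stood at 5414 CPM and miR-145 at 5108 CPM, followed by miR-126b at 2999 CPM, miR-222a at 2896 CPM and miR-126a at 2895 CPM. miR-143 was far below the others, at 149.5 CPM. Only the step to miR-143 was larger than the spread of most libraries, since miR-221 alone ran from 166 to 11664 CPM while miR-143 never passed 242 CPM. Among the minor arms, miR-126a* averaged 2909 CPM, as much as its major arm, and miR-222a* 1494 CPM. miR-221* averaged 388 CPM and miR-145* 176 CPM. miR-126b* and miR-143* were the rarest, at 14.9 and 2.44 CPM.

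**Figure D1:**
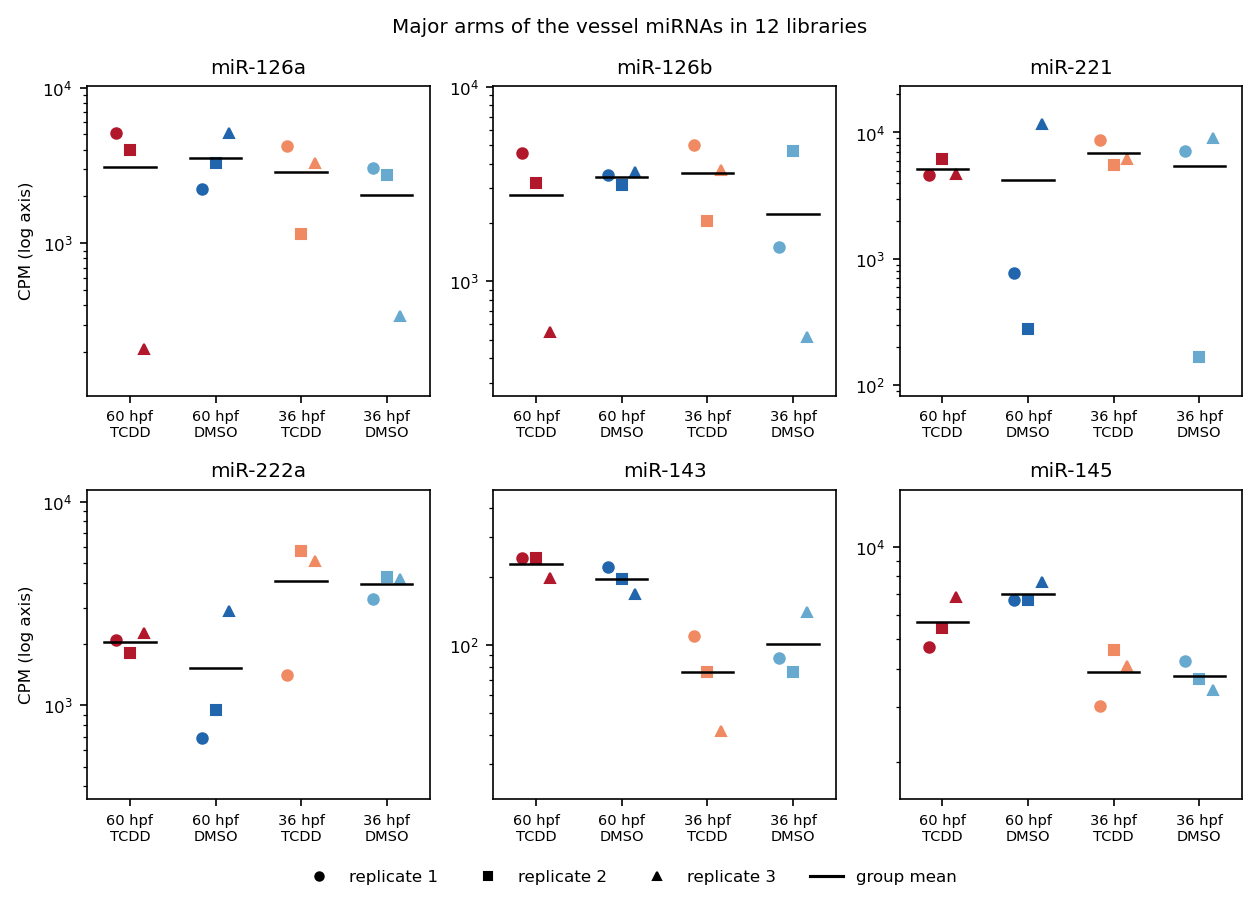
CPM (log axis) of the 6 major arms in each of the 12 libraries, with groups from left to right 60 hpf TCDD, 60 hpf DMSO, 36 hpf TCDD and 36 hpf DMSO, symbols for replicates and bars for group means. miR-143 and miR-145 were higher in all 6 libraries of 60 hpf than in any library of 36 hpf, while libraries of miR-126a, miR-126b and miR-221 lay far below the rest of their group.

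With both treatments averaged, the mural miRNAs miR-143 and miR-145 were higher at 60 hpf than at 36 hpf, 1 arm each of the miR-221 and miR-222a hairpins was lower, and no arm of miR-126 passed the test. Over both treatments together, 5 of the 11 tested arms passed (edgeR quasi-likelihood test, adjusted p under 0.05 over all 410 tested miRNAs), against 34.4% of all tested miRNAs, so the count alone does not set the members apart. Higher calls were 3, all of them mural, against 21% of all tested miRNAs. Lower calls were 2, both from the miR-221 and miR-222a hairpins and none from miR-126, against 13.4%. With the replicate number as a block the 3 mural calls held, while miR-221* (adjusted p = 0.0501) and miR-222a (0.0564) did not pass. The 3 tested mural arms come from 2 members and the 8 endothelial arms from 4, so neither their calls nor their fold changes are independent. The median log2 fold change was 1.19 for the 3 tested mural arms and -0.52 for the 8 endothelial arms, beside 0.12 for all tested miRNAs. That last median moved to 0.055 with RLE scaling, -0.056 with upper quartile scaling and 0.41 with total count scaling, and the 5 called arms kept their directions under each.

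miR-143, the less abundant mural miRNA, stood at 242, 240.3 and 197 CPM in TCDD embryos of 60 hpf and at 220.5, 196 and 168 CPM in DMSO embryos of 60 hpf. At 36 hpf it stood at 109.5, 75.8 and 42 CPM with TCDD and 87.3, 76.2 and 140.0 CPM with DMSO. Every library of 60 hpf was above every library of 36 hpf. miR-143 and miR-145 were the 2 of 11 arms whose libraries did not overlap between the times, against 21% of all tested miRNAs. The mean was 211 ± 28.8 CPM at 60 hpf and 88.5 ± 33.4 CPM at 36 hpf (SD, n = 6 each). Its log2 fold change over both treatments was 1.25 (SE 0.27, edgeR adjusted p = 0.00401), a 2.38-fold rise. Within TCDD embryos it was 1.56 (SE 0.38, adjusted p = 0.0147) and within DMSO embryos 0.94 (SE 0.37, adjusted p = 0.111), of which only the first passed. The difference between them, 0.62 (SE 0.52), did not pass, so the rise is not shown to differ between treatments. The call in TCDD embryos ended without 36 hpf TCDD replicate 2 (adjusted p = 0.0508), and that over both treatments held with each single library left out.

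miR-145, which drives smooth muscle differentiation in mammals, was the steadiest member. Its 60 hpf libraries stood at 4727, 5454 and 6884 CPM with TCDD and 6728, 6713 and 7672 CPM with DMSO. Its 36 hpf libraries stood at 3021, 4623 and 4079 CPM with TCDD and 4256, 3704 and 3429 CPM with DMSO, and again no library of 36 hpf reached the lowest library of 60 hpf. The log2 fold change over both treatments was 0.72 (SE 0.18, edgeR adjusted p = 0.0107), or 1.64-fold. It passed within DMSO embryos (0.89, SE 0.26, adjusted p = 0.0343) and not within TCDD embryos (0.54, SE 0.26, adjusted p = 0.153), and the difference, -0.35 (SE 0.36), did not pass. Within DMSO embryos 1 of 11 arms was called, against 18.3% of all tested miRNAs, and that call ended without any 1 of the 6 DMSO libraries or without 60 hpf TCDD replicate 2 (adjusted p = 0.0733 to 0.149). It also ended under 6 other settings, RLE scaling among them. With upper quartile scaling the adjusted p over both treatments was 0.0998.

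The minor arm of the same hairpin was higher at 60 hpf too. miR-145* stood at 254, 288 and 72.6 CPM with TCDD and 303, 274 and 282 CPM with DMSO at 60 hpf, and at 144.9, 80.5 and 64.3 CPM with TCDD and 99, 133 and 118 CPM with DMSO at 36 hpf. In all, 5 of the 6 libraries of 60 hpf lay above all libraries of 36 hpf, and 60 hpf TCDD replicate 3 did not. Over both treatments the log2 fold change was 1.19 (SE 0.34, edgeR adjusted p = 0.0194). It did not pass when 1 of 4 libraries was left out: 36 hpf DMSO replicate 1 (adjusted p = 0.0548), 36 hpf TCDD replicate 2 (0.0507) or 3 (0.0521), or 60 hpf TCDD replicate 2 (0.0587). miR-143* was counted 1 to 12 times in 11 libraries and 0 times in 36 hpf TCDD replicate 2, where 3 counts would be 4.74 CPM, so no change of it was detectable at this depth.

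miR-222a, which shares its seed with miR-221, was lower at 60 hpf than at 36 hpf. It stood at 2094, 1803 and 2266 CPM with TCDD and 693, 945 and 2911 CPM with DMSO at 60 hpf, against 1415, 5727 and 5115 CPM with TCDD and 3331, 4282 and 4169 CPM with DMSO at 36 hpf. The DMSO libraries of the times did not overlap, as for 42.4% of all tested miRNAs, whereas among TCDD embryos 36 hpf replicate 1 was below all 3 libraries of 60 hpf. The log2 fold change over both treatments was -1.18 (SE 0.41, edgeR adjusted p = 0.048), 2.27-fold lower at 60 hpf. This call was marginal. It ended with the replicate block (adjusted p = 0.0564), and without any 1 library other than 36 hpf TCDD replicate 1 and 60 hpf DMSO replicate 3 (adjusted p = 0.0508 to 0.103). Single libraries left out aside, 7 of 11 alternatives called it. Within DMSO embryos the value was -1.37 (SE 0.59) and within TCDD embryos -0.99 (SE 0.58), neither of which passed, and the difference of these was 0.38 (SE 0.82). Without 60 hpf DMSO replicate 3 the value within DMSO embryos passed, at -2.28 (adjusted p = 0.0239). It also passed under 1 of 12 alternatives that were not single libraries left out. Its minor arm miR-222a* averaged 1155 ± 166 CPM at 60 hpf and 1833 ± 607 CPM at 36 hpf (SD, n = 6 each). The log2 change of -0.66 (SE 0.24, edgeR adjusted p = 0.0547) did not pass. It passed with 36 hpf DMSO replicate 3 left out (0.0486) and with 36 hpf TCDD replicate 1 left out (0.019). Single libraries left out aside, 4 of 11 alternatives called miR-222a* too.

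From the neighbouring miR-221 hairpin, the minor arm was lower at 60 hpf. miR-221* stood at 185, 218 and 203 CPM with TCDD and 265, 238 and 349 CPM with DMSO at 60 hpf, and at 461, 717 and 514 CPM with TCDD and 871, 399 and 237 CPM with DMSO at 36 hpf. The TCDD libraries of the times did not overlap, as for 40.5% of all tested miRNAs, and the DMSO libraries overlapped through 36 hpf replicate 3. That replicate, at 237 CPM, was the only library of 36 hpf with a depth like those of 60 hpf (3557670 miRNA counts). The part of depth was not tested. The log2 fold change over both treatments was -1.15 (SE 0.30, edgeR adjusted p = 0.0129), and no single library left out ended the call, though the replicate block did (adjusted p = 0.0501). It passed within TCDD embryos (-1.48, SE 0.43, adjusted p = 0.0312) and not within DMSO embryos (-0.82, SE 0.43, adjusted p = 0.22), and the difference did not pass (-0.66, SE 0.60). The call in TCDD embryos ended without 36 hpf TCDD replicate 2 or without any 1 of the 60 hpf TCDD libraries (adjusted p = 0.0577 to 0.103). The major arm miR-221 had a log2 fold change of -0.38 with an SE of 0.91, too wide to tell a rise from a fall.

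Within TCDD embryos 3 of the 11 arms were called between the times, against 21.5% of all tested miRNAs: miR-143, miR-221* and the rare miR-126b*. miR-126b* stood at 5.92, 9.73 and 8.78 CPM in TCDD embryos of 60 hpf, against 12.9, 26.8 and 44.5 CPM at 36 hpf, which rests on 15 to 46 counts per library (log2 fold change -1.73, SE 0.51, edgeR adjusted p = 0.0324). In DMSO embryos it stood at 9.5, 18.1 and 7.46 CPM at 60 hpf and 13.4, 8.02 and 13.5 CPM at 36 hpf, which overlap. The call of miR-126b* in TCDD embryos was lost when 36 hpf DMSO replicate 1, 36 hpf TCDD replicate 2 or 3, or any 1 of the 60 hpf TCDD libraries was left out (adjusted p = 0.0508 to 0.123). TCDD libraries of one number were correlated between the times in their deviation from the group mean, and with the replicate number as a block 1 arm was called within TCDD embryos, miR-143 (log2 fold change 1.66, adjusted p = 0.0338). miR-221* (-1.46, adjusted p = 0.0705) and miR-126b* (-1.65, adjusted p = 0.0717) then did not pass.

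The ratio of miR-145 to miR-222a counts within a library does not depend on scaling, and does not tell which of them moved. Counts of miR-145 were 2.26 to 9.70 times those of miR-222a in the 6 libraries of 60 hpf, and 0.797 to 2.13 times in the 6 libraries of 36 hpf. The ranges came close without overlapping. This pair was chosen after the values were seen, so the ratio is a description with no test.

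**Figure D2:**
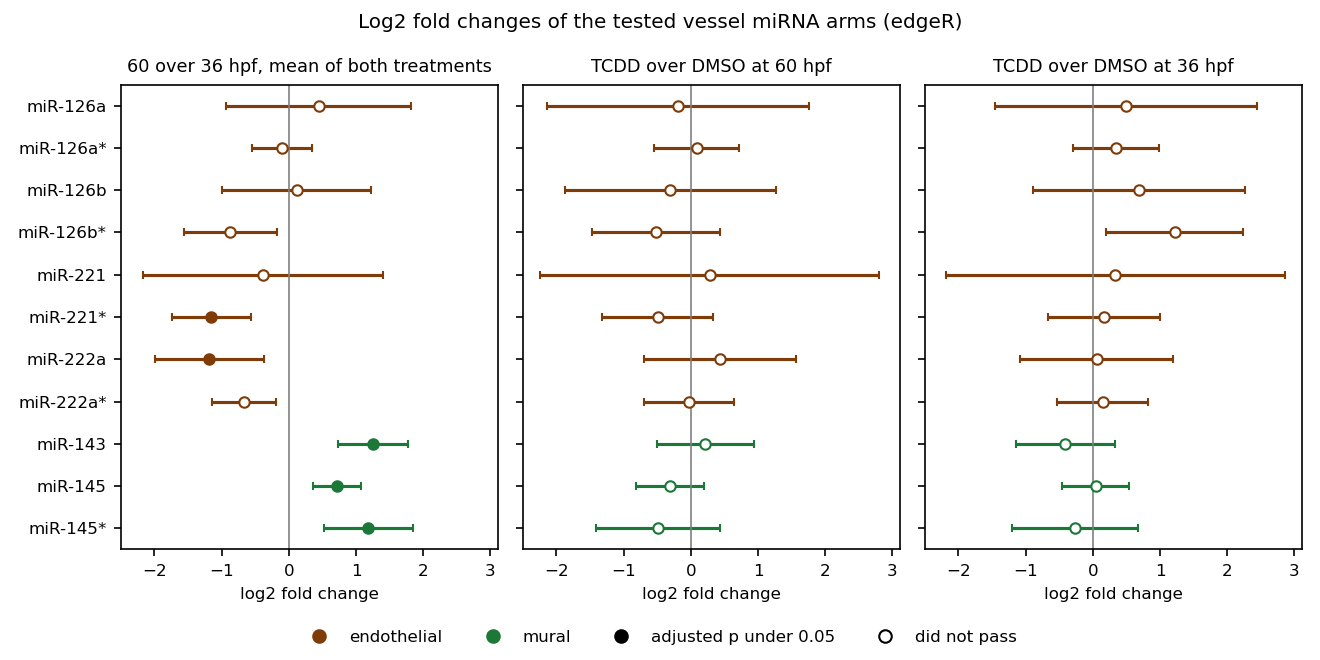
Log2 fold changes of the 11 tested arms (points) with approximate 95% intervals (bars). The comparisons are 60 over 36 hpf averaged over both treatments, TCDD over DMSO at 60 hpf and TCDD over DMSO at 36 hpf. The intervals were taken from the standard errors with a normal distribution, and are narrower than the edgeR test implies. Filled points passed at adjusted p under 0.05: 3 mural arms above 0 and miR-221* and miR-222a below 0 for development, and none for TCDD.

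The arms of miR-126, the members most specific to endothelium, were not called between the times with both treatments averaged, and miR-126b* was called within TCDD embryos. miR-126a stood at 5119, 3985 and 211 CPM with TCDD and 2245, 3258 and 5105 CPM with DMSO at 60 hpf, and at 4237, 1142 and 3276 CPM with TCDD and 3056, 2764 and 343 CPM with DMSO at 36 hpf. In most libraries it lay between 1142 and 5119 CPM, while 60 hpf TCDD replicate 3 and 36 hpf DMSO replicate 3 had only 211 and 343 CPM. The same libraries were lowest for miR-126b, at 547 and 516 CPM, where the other 10 ran from 1489 to 5033 CPM. Log2 fold changes over both treatments were 0.44 (SE 0.70) for miR-126a and 0.12 (SE 0.57) for miR-126b. The minor arm miR-126a* was steady through the same libraries, with 3073 CPM in 60 hpf TCDD replicate 3 and 2984 CPM in 36 hpf DMSO replicate 3. It averaged 2804 ± 694 CPM at 60 hpf and 3015 ± 612 CPM at 36 hpf (SD, n = 6 each). The log2 change was -0.095 (SE 0.23, edgeR adjusted p = 0.782), with an approximate 95% interval of -0.54 to 0.35. miR-126b* over both treatments was at -0.87 (SE 0.36, adjusted p = 0.0812), and passed without 36 hpf TCDD replicate 1 (0.03) or 60 hpf DMSO replicate 2 (0.0389). It also passed under 1 of 11 alternatives that were not single libraries left out.

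Between TCDD and DMSO embryos no vessel miRNA arm passed at either time. At 60 hpf 0 of 11 arms were called, against 0.244% of all tested miRNAs (1 of 410), and at 36 hpf 0 of 11, against 0%. At unadjusted p under 0.05 there were 0 of 11 arms at 60 hpf, against 6.83% of all tested miRNAs, and 1 of 11 at 36 hpf, against 4.15%, which was miR-126b*. The libraries of TCDD and DMSO embryos did not overlap for 1 of 11 arms at 60 hpf, against 21.5% of all tested miRNAs, and for 0 of 11 at 36 hpf, against 5.37%. Averaged over both times 0 of 11 arms were called, against 0.244%, with 0 at unadjusted p under 0.05, against 4.88%. For the difference between the times 0 of 11 were called, against 0%, with 1 at unadjusted p under 0.05, against 4.63%. The comparisons of treatments and of times use the same libraries. DESeq2, limma-voom and edgeR's likelihood ratio test called 0 of the arms in each of these comparisons too.

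At 60 hpf the log2 fold changes of the 11 arms ran from -0.52 to 0.44. The mural miR-145 averaged 5689 ± 1098 CPM with TCDD and 7038 ± 549 CPM with DMSO (SD, n = 3 each), with overlapping libraries. Its log2 fold change was -0.31 (SE 0.26, edgeR adjusted p = 0.991), with an approximate 95% interval of -0.81 to 0.19. That interval was the narrowest of the 11 tested arms at this time. miR-145* averaged 205 ± 116 CPM with TCDD and 287 ± 15.1 CPM with DMSO (log2 fold change -0.48, SE 0.47), where the TCDD mean was lowered by replicate 3. miR-143 had a log2 fold change of 0.22 (SE 0.37). Among the endothelial arms, miR-221* was lower in all 3 TCDD libraries than in any DMSO library with TMM scaling. On library totals they overlap. TCDD replicate 2 (538 of 2007639 miRNA counts) then lies above DMSO replicate 2 (606 of 2374864). The log2 fold change of miR-221*, -0.49 (SE 0.42, edgeR adjusted p = 0.991), did not pass. Values were -0.19 (SE 0.99) for miR-126a, -0.30 (SE 0.80) for miR-126b and 0.44 (SE 0.58) for miR-222a. The low value of miR-126a and miR-126b in 60 hpf TCDD replicate 3 sets their sign, since without it they were at 0.37 and 0.19, and without 60 hpf DMSO replicate 3 miR-126a was at 0.18. Total count scaling moved the median of all tested miRNAs to 0.31, beside 0.00088 with TMM, and brought miR-126a to 0.11 and miR-145 to 0.0015. miR-221 stood at 4634, 6176 and 4694 CPM with TCDD and 778, 281 and 11664 CPM with DMSO. The TCDD libraries were close together, while DMSO replicates 1 and 2 were far below them and replicate 3 far above (log2 fold change 0.29, SE 1.29). Without DMSO replicate 1 the value was -0.22 and without DMSO replicate 2 -0.26. The erythroid markers miR-144 and miR-451, of the blood inside the vessels, summed to 937 to 2656 CPM with TCDD and 3075 to 4043 CPM with DMSO at 60 hpf. These ranges come close without overlapping with TMM scaling, and were not tested. The sums were not taken with total count scaling, which moved the median of all tested miRNAs to 0.31. Single miRNAs did not overlap in 21.5% of all tested at this time. Summed muscle, leukocyte, neural and epidermal markers and the cartilage marker overlapped between TCDD and DMSO at 60 hpf. The part of blood cells in the values of the vessel miRNAs was not tested.

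At 36 hpf all 8 endothelial arms had positive log2 fold changes, as had 224 of 410 tested miRNAs. The 8 arms come from 4 hairpins in the same libraries, so their signs are not independent. Values ran from 0.057 to 1.22 with a median of 0.34, beside 0.046 for all tested miRNAs, although miR-222a turned to -0.015 with total count scaling. None passed, and the sign rested on single low DMSO libraries for the major arms miR-126a and miR-221. miR-126a was at 0.49 (SE 0.996), and at -0.035 without 36 hpf DMSO replicate 3. miR-221, at 8716, 5572 and 6203 CPM with TCDD and 7089, 166 and 8992 CPM with DMSO, was at 0.33 (SE 1.29), and at -0.31 without 36 hpf DMSO replicate 2. miR-126b had a value of 0.69 (SE 0.80) and miR-222a one of 0.057 (SE 0.58), which was below 0 without 36 hpf TCDD replicate 2 or 3 or 36 hpf DMSO replicate 1 (-0.33 to -0.12). The arm with the smallest p was miR-126b*, at 12.9, 26.8 and 44.5 CPM with TCDD and 13.4, 8.02 and 13.5 CPM with DMSO (log2 fold change 1.22, SE 0.52, edgeR adjusted p = 0.996), a single TCDD library lying within the DMSO range. The TCDD values rest on 15, 17 and 18 counts, in libraries of 1236528, 739920 and 459634 miRNA counts. The DMSO values rest on 8, 10 and 46 counts. The part of depth was not tested. For miR-126b* the effect at 60 hpf minus that at 36 hpf was -1.73 (SE 0.71, edgeR adjusted p = 0.871). The mural arms gave -0.41 (SE 0.37) for miR-143 and 0.042 (SE 0.26) for miR-145. For miR-145 the approximate 95% interval was -0.46 to 0.54.

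**Figure D3:**
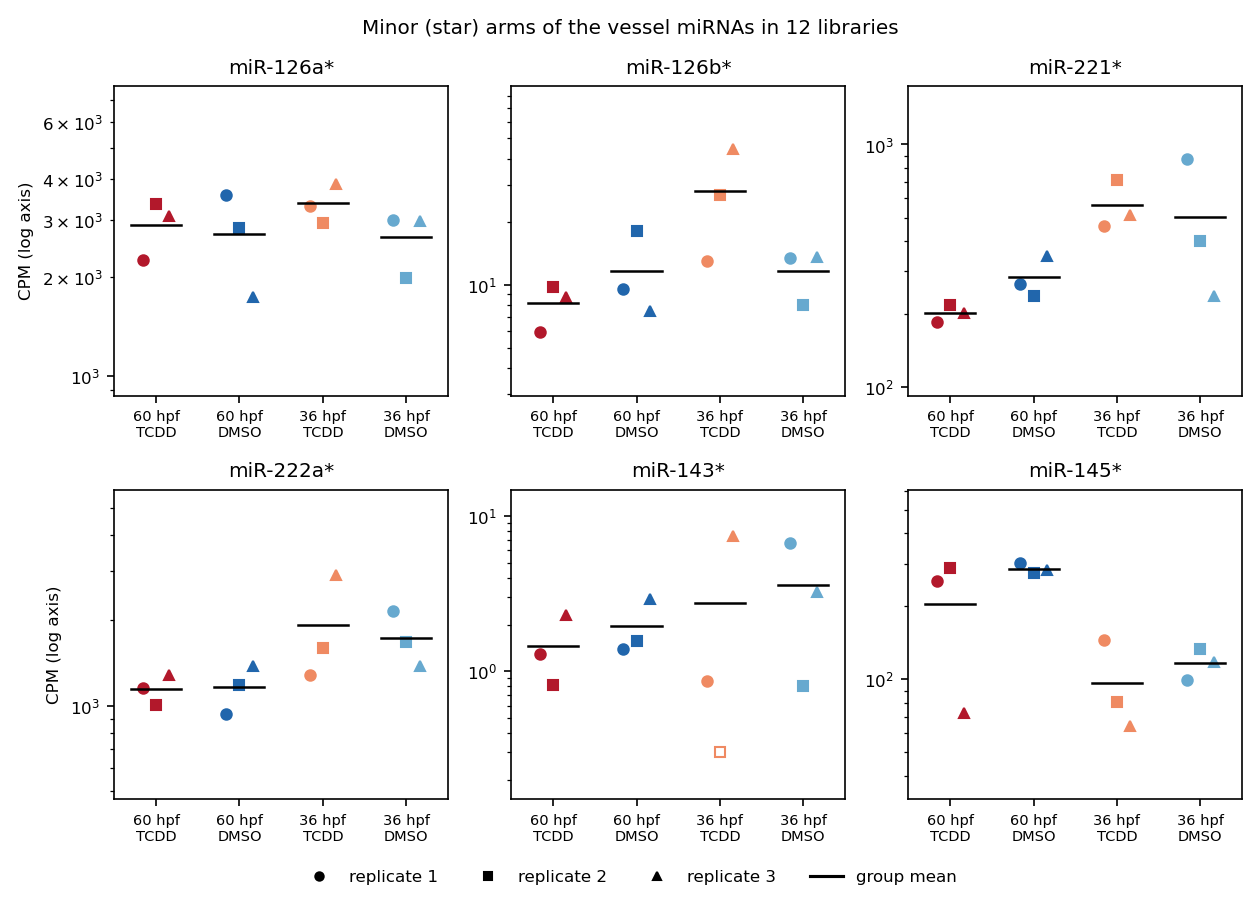
CPM (log axis) of the 6 minor arms in each of the 12 libraries, with groups from left to right 60 hpf TCDD, 60 hpf DMSO, 36 hpf TCDD and 36 hpf DMSO, symbols for replicates and bars for group means. The open square for miR-143* is a library with 0 counts, drawn near the foot of the axis. miR-126a* ran from 1737 to 3859 CPM over the 12 libraries.

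The endothelial major arms varied more between replicate libraries than most miRNAs. The SD of log2 CPM within groups was 2.14 for miR-221, the 12th widest of 410 tested miRNAs, 1.66 for miR-126a (37th) and 1.19 for miR-126b (74th), beside a median of 0.60 over all tested miRNAs. These arms were counted at least 207 times in every library, and among the 107 miRNAs with a mean of 1000 CPM or more they were 6th, 11th and 22nd. miR-222a, at 0.79, was nearer to the median. The minor arms of the same hairpins were tighter, at 0.52 for miR-221*, 0.36 for miR-126a*, 0.59 for miR-126b* and 0.38 for miR-222a*. In the mural pair the order was turned round, with 0.23 for miR-145 (390th of 410) and 0.63 for miR-145*, and miR-143 was at 0.43. Over all 140 hairpin names with both arms tested, the major arm was the wider in 55.7%, against 4 of 5 members.

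**Figure D4:**
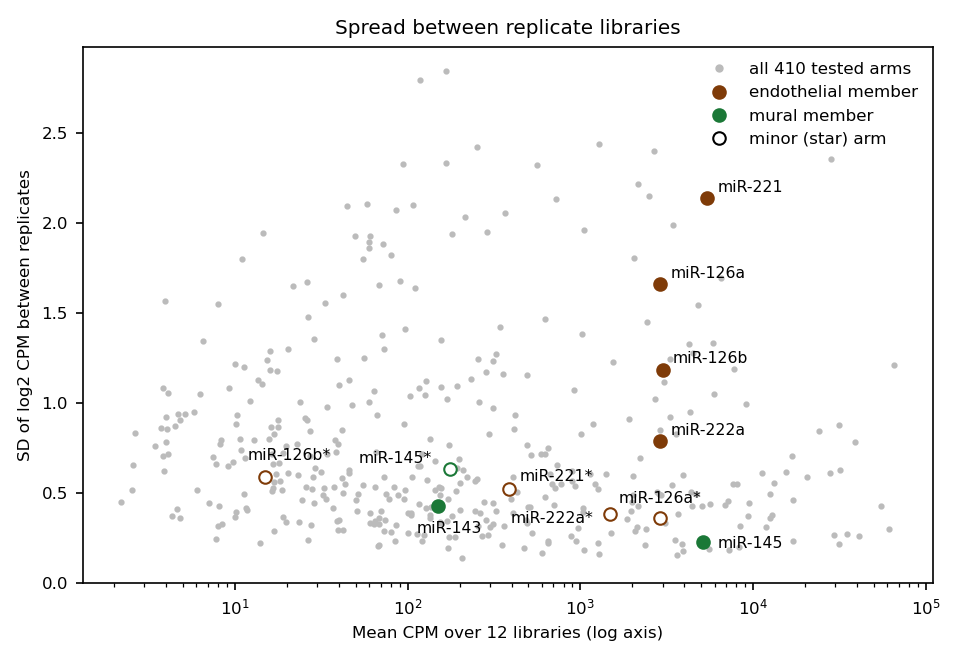
SD of log2 CPM between replicates (y axis, pooled over the 4 groups) against mean CPM over 12 libraries (x axis, log) for all 410 tested arms in grey, with the member arms labelled, filled for major and open for minor arms. miR-221, miR-126a and miR-126b stand at 2.14, 1.66 and 1.19, above most miRNAs of like abundance, and miR-145 at 0.23.

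The share of a hairpin's counts in its minor arm does not depend on library size. For miR-126a it was 30.6, 45.7 and 93.6% with TCDD and 61.4, 46.5 and 25.4% with DMSO at 60 hpf, and 43.9, 72.1 and 54.1% with TCDD and 49.5, 41.8 and 89.7% with DMSO at 36 hpf, so that the star arm was the more abundant in 5 of 12 libraries. For miR-221 the share was 3.83, 3.41 and 4.15% with TCDD and 25.4, 45.8 and 2.9% with DMSO at 60 hpf, and 5.02, 11.4 and 7.66% with TCDD and 10.9, 70.6 and 2.57% with DMSO at 36 hpf. The shares of 25.4, 45.8 and 70.6% came with the lowest levels of miR-221, as in 36 hpf DMSO replicate 2, and not with the highest levels of miR-221*. The next shares were 11.4% in 36 hpf TCDD replicate 2 and 10.9% in 36 hpf DMSO replicate 1. Those libraries had the highest miR-221*, at 717 and 871 CPM. Between TCDD and DMSO embryos the share of miR-221* differed by -20.5 percentage points (exact permutation test within the times, two-sided, p = 0.15, adjusted over 18 tests p = 0.648), and that of miR-126a* by 4.27 (p = 0.77, adjusted p = 0.97). Between the times the share of miR-222a* averaged 42.1 ± 11.3% at 60 hpf and 33 ± 9.78% at 36 hpf (SD, n = 6 each, exact permutation test p = 0.18). The share of miR-145* averaged 3.83 ± 1.49% at 60 hpf and 2.82 ± 1.17% at 36 hpf (exact permutation test p = 0.175). None of the 18 tests of shares and ratios passed (exact permutation, smallest p = 0.14, where 0.005 is the smallest these relabellings can give). After adjustment over the 18 tests, a single p of 0.005 would still not pass. A change in a single share or ratio could therefore not be called alone.

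**Figure D5:**
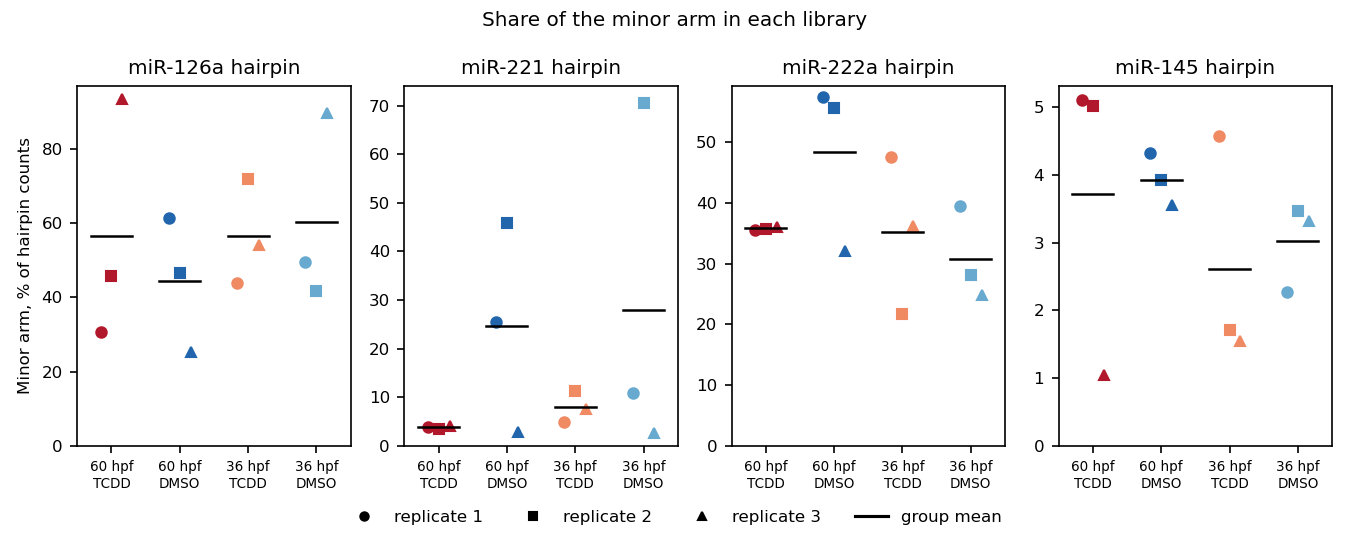
Percentage of a hairpin's counts that fell on the minor arm in each library (y axis, from 0) for the miR-126a, miR-221, miR-222a and miR-145 hairpins, with groups from left to right 60 hpf TCDD, 60 hpf DMSO, 36 hpf TCDD and 36 hpf DMSO, symbols for replicates and bars for group means. The 3 TCDD libraries of 60 hpf lie close together for miR-221 and miR-222a, while DMSO libraries of 60 hpf reach 45.8% and 57.4%. At 36 hpf a DMSO library reaches 70.6% for miR-221, and the TCDD libraries run from 21.8% to 47.5% for miR-222a.

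Members of a cluster differed in level from library to library. Counts of miR-145 were 19.6 to 97.1 times those of miR-143. The log2 ratio of miR-143 over miR-145 averaged -4.91 ± 0.446 at 60 hpf and -5.51 ± 0.724 at 36 hpf (SD, n = 6 each, exact permutation test p = 0.14). The ratio of miR-221 to miR-222a counts was 2.21, 3.42 and 2.07 in TCDD and 1.12, 0.298 and 4.01 in DMSO embryos of 60 hpf, and 6.16, 0.973 and 1.21 in TCDD and 2.13, 0.0388 and 2.16 in DMSO embryos of 36 hpf. In TCDD embryos of 60 hpf it stayed within a narrow range, while over all libraries it ran from 0.0388 to 6.16. Its log2 value differed by 1.48 between TCDD and DMSO embryos (exact permutation test p = 0.255, adjusted p = 0.707). The paralogs miR-126a and miR-126b were nearer to each other, at ratios of miR-126a to miR-126b of 0.386 to 2.05. Their Pearson r in log2 CPM over the 12 libraries was 0.91, the highest for either among 230 arms with a mean of 100 CPM or more. Reads of such paralogs may have been counted for both, as nothing states how reads that match both were counted. For comparison, r was 0.58 for miR-143 with miR-145 and 0.34 for miR-221 with miR-222a. Of 230 arms, miR-145 ranked 49 for miR-143, and miR-143 ranked 47 for miR-145. miR-222a ranked 24 for miR-221, and miR-221 ranked 55 for miR-222a. Across the endothelial pairs r was below 0. It was -0.11 for miR-221 with miR-126a and -0.30 with miR-126b, and -0.23 and -0.27 for miR-222a with the same. The arms of one hairpin had r of -0.23 for miR-126a, 0.18 for miR-221, 0.45 for miR-145 and 0.74 for miR-222a. These r values describe 12 libraries that share their times and treatments.

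Outside the members, the miRNAs whose levels over the 12 libraries were most like miR-126a were miR-21 (0.85), miR-429b (0.78) and miR-16a (0.72), with Pearson r of log2 CPM in brackets. miR-21 stood at 90.7 CPM in 60 hpf TCDD replicate 3 and at 175 CPM in 36 hpf DMSO replicate 3, the lowest values of its 12 libraries, and miR-429b at 10.7 and 5.58 CPM in the same libraries, again its lowest. miR-21 acts in heart valve formation in zebrafish, and miR-429b belongs to the epithelial miR-200 family. Most like miR-126b were miR-16a (0.73), miR-21 (0.69) and miR-144* (0.68). For miR-221 they were miR-205 (0.76), miR-25 (0.71) and miR-375 (0.64). The epidermal miR-205 was lowest in 36 hpf DMSO replicate 2 and 60 hpf DMSO replicate 2, at 13577 and 18618 CPM, the libraries lowest for miR-221. In 60 hpf DMSO replicate 1, the next lowest for miR-221 at 778 CPM, miR-205 was not low, at 41664 CPM. For miR-222a they were miR-150 (0.89), miR-23b (0.86) and miR-454a* (0.86), for miR-143 miR-182* (0.94), let-7e (0.93) and miR-124-4* (0.92), and for miR-145 miR-129-2* (0.94), miR-135c (0.92) and let-7a-3* (0.92). Whether depth or library preparation had a part in the libraries that stand apart was not tested.

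Further miRNAs linked to vessels showed no call for TCDD either. Of all tested miRNAs, 0.244% were called at 60 hpf and 0% at 36 hpf, so the absence of calls does not set these lists apart. Of 43 tested arms of 18 miRNAs linked to angiogenesis or endothelium, 0 were called between TCDD and DMSO embryos at 60 or 36 hpf, with median log2 fold changes of 0.21 and 0.045 beside 0.00088 and 0.046 for all tested miRNAs. Of 29 tested arms of 10 miRNAs linked to smooth muscle or mesenchyme, 0 were called, with medians of 0.074 at 60 hpf and 0.071 at 36 hpf. Between 60 and 36 hpf over both treatments, 6 of the 43 arms of the first list were higher and 3 lower, against 21% and 13.4% of all tested miRNAs, so the list was called no more often than miRNAs in general. Those higher were 3 arms of the miR-132 hairpins, of which miR-132 was at 2.20 (SE 0.40), and miR-218a, miR-218a-1* and miR-218b, the last of them at 1.95 (SE 0.26). miR-218 acts on Slit and Robo signalling in vessel growth and is also expressed in motor neurons. Those lower were miR-30a at -2.34 (SE 0.34), its minor arm miR-30a*, and the Hox cluster miRNA miR-10c at -0.64 (SE 0.18). In the second list 2 of 29 arms were higher (miR-204* and miR-214*) and 3 lower (miR-1-2*, miR-133a-2* and miR-26a-2*), beside the same 21% and 13.4%, with abundant members such as miR-204 at 0.18 (SE 0.17) and miR-199-2* at 1.21 (SE 0.58) not passing. The list medians over both treatments were -0.31 and 0.20, beside 0.12 for all tested miRNAs. miR-222b, a paralog of miR-222a singled out after its values were seen, stood at 7.45 CPM in 60 hpf TCDD replicate 3, 3.63 CPM in 60 hpf DMSO replicate 1 and 1.47 CPM in 36 hpf DMSO replicate 3, and at 51.8 to 94.7 CPM in the other 9 libraries.

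Markers of other cell types were present as well. Summed over miR-1, miR-133a, miR-206 and miR-499, muscle and heart markers reached 35084 to 56034 CPM at 60 hpf and 21532 to 66661 CPM at 36 hpf. The epidermal miR-203a, miR-203b and miR-205 summed to 93021 to 140039 CPM at 60 hpf and 117056 to 215014 CPM at 36 hpf, and the erythroid miR-144 and miR-451, of cells that circulate in the vessels, to 937 to 4043 CPM at 60 hpf and 638 to 4614 CPM at 36 hpf. Neural markers (miR-9 and miR-124) summed to 283 to 2519 CPM at 60 hpf (median 2036) and 386 to 1384 CPM at 36 hpf (median 588), and overlapped through a single TCDD library of 60 hpf. Leukocyte markers (miR-142a and miR-223) summed to 2261 to 5556 CPM at 60 hpf and 3744 to 11179.7 CPM at 36 hpf, and the cartilage marker miR-140 stood at 705 to 2013 CPM at 60 hpf (median 1837) and 148 to 1305 CPM at 36 hpf (median 908). All 14 markers were detected in every library, apart from miR-144 at 0 counts in 1 library of 36 hpf TCDD embryos. The mural major arms summed to 4969 to 7840.3 CPM at 60 hpf (median 6929) and 3131 to 4699 CPM at 36 hpf (median 3951), ranges that do not overlap. Between the medians of the times the neural and cartilage sums differed by a larger factor than the mural sum. The part of other cell types in the course of miR-143 and miR-145 was not tested.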

How the data were processed

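Per the labels' protocols, small RNA of whole zebrafish embryos went through the SREK library kit and a SOLiD V3 sequencer. The authors deposited whole-number counts of each feature in 12 tables, 1 per library, and features absent from a table were set to 0. The submitters' processing notes list edgeR and give it no role. Not given in the sources used here were aligner, counting rule, miRNA annotation and genome build, and no positions are printed. Rows with transcript identifiers, 1.20% to 5.35% of a library's counts, stayed out of library sizes and tests. They made up 2.24% to 5.35% at 36 hpf and 1.20% to 1.65% at 60 hpf. Rows that held nearly equal counts for copies of one miRNA were counted once, by the most abundant copy, which left 464 features.

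edgeR 4.0.16 (R 4.3.3) was run with TMM scaling, filterByExpr (minimum count 10, total 15, which left 410 features), a mean for each of the 4 groups, quasi-likelihood tests and Benjamini-Hochberg adjustment over the 410, with a threshold of 0.05. The approximate 95% intervals were taken from the standard errors with a normal distribution. They are narrower than the quasi-likelihood test implies. For miR-145 between the times in TCDD embryos the interval of 0.0399 to 1.04 left out 0, while the unadjusted edgeR p was 0.0584. Steps were tested on simulated data. The alternatives covered scaling (RLE, upper quartile, total count), filters, DESeq2 1.42.0, limma-voom (limma 3.58.1), edgeR's likelihood ratio test, the replicate number as a block, copies summed, the compared groups alone, the omission of both TCDD libraries numbered 3 and that of each library. Shares of the minor arm and log2 ratios (0.5 counts added) were tested by exact permutation within the strata. Correlations used log2 CPM with a prior count of 2.

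Samples were grouped by their labels. Replicate numbers were checked for pairing by the correlation of deviations from group means. In TCDD embryos it was 0.25 to 0.42 between the times for same-numbered libraries, over 0.1 in 3 of 3 pairs, a pattern in the data with no basis in the labels. In DMSO embryos it was -0.23 to 0.02, between treatments -0.23 to 0.11 at 36 hpf and -0.09 to 0.13 at 60 hpf. The main fit took no pairing, so its calls between the times do not allow for this pattern. Only the replicate block paired libraries. For the times it paired same-numbered libraries in DMSO embryos as well as in TCDD embryos, and for the treatments it paired TCDD with DMSO libraries of one number. Named were all arms of the members, the 3 other miRNAs of highest r with each major arm, and the cell type markers. Of the related lists, the arms called between the times over both treatments were named, with miR-204, miR-199-2* and miR-222b besides. The abundant miR-10a, miR-10b and miR-10d were left out, and calls of the related lists within a single treatment were not described. The members and lists were chosen with earlier results of these data known.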

Additional observations from a re-analysis of the deposited data

How the results depend on the processing

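Over both treatments, miR-143 was called under each alternative run and with each library left out. The replicate block reduced the called arms to 3, against 5 without it, to 1 in TCDD embryos, against 3, and to 0 in DMSO embryos, against 1, and it changed no call between TCDD and DMSO, where 0 arms were called under each alternative. Other alternatives ended calls too. Single libraries left out aside, 11 alternatives covered both treatments together. Of these, 11 called miR-145*, 10 miR-145, 10 miR-221* and 7 miR-222a. In TCDD embryos 12 of 12 called miR-143, 9 miR-221* and 8 miR-126b*. In DMSO embryos 0 arms were called with RLE scaling, upper quartile scaling, no filter, a stricter filter or the likelihood ratio test, 4 with DESeq2, and 2 with only the groups compared or without both TCDD libraries numbered 3. With single libraries left out, 3 to 7 arms were called over both treatments, 0 to 3 in TCDD and 0 to 2 in DMSO embryos. Calls over all miRNAs moved too. In the same order they were 141, 88 and 75 in the main fit, and 112, 60 and 54 with the replicate block. With single libraries left out they were 124 to 137, 58 to 86 and 53 to 87. No share or ratio was called under any setting. By itself, a single share or ratio could not pass under any of these settings. The replicate block and omitted libraries reach no smaller p than the main test. The absence of calls therefore does not show stability.

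Signs that turned were all of values that had not passed, and the cause was not tested. Total count scaling gave log2 fold changes of 0.11 for miR-126a and 0.0015 for miR-145 between TCDD and DMSO at 60 hpf, -0.015 for miR-222a and -0.012 for miR-145 at 36 hpf, 0.014 for miR-145 in the difference between the times, and 0.19 for miR-126a* between the times. Upper quartile scaling gave -0.049 for miR-126b between the times. For TCDD at 36 hpf, miR-222a was at -0.20 with limma-voom, -0.16 with the replicate block and -0.14 without both TCDD libraries numbered 3. miR-145 was at -0.016 with only the groups compared and -0.014 with copies summed. Without both TCDD libraries numbered 3, TCDD at 60 hpf gave 0.36 for miR-126a and 0.18 for miR-126b, and the share of miR-126a* differed by -4.32 percentage points.

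With single libraries left out, log2 fold changes for TCDD at 60 hpf ran from -0.77 to 0.37 for miR-126a, -0.87 to 0.19 for miR-126b and -0.26 to 3.31 for miR-221. At 36 hpf they ran from -0.035 to 0.85 for miR-126a, -0.31 to 0.96 for miR-221, -0.33 to 0.47 for miR-222a and -0.16 to 0.21 for miR-145. Between the times they ran from -0.24 to 0.023 for miR-126a* and -0.17 to 0.69 for miR-126b. The treatment difference in the share of miR-126a* ran from -4.97 to 11.6 percentage points. The wide spread of miR-221, miR-126a and miR-126b, and the few counts of miR-126b* and miR-143* limited what could be detected.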
